A study of Mus musculus with 12 samples.

Results

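The genes described are 10 components of the inflammasomes and of NOD-like receptor signalling, namely Nlrp3, Nlrp10, Nlrc4, Aim2, Pycard, Casp1, Casp4, Nod1, Nod2 and Ripk2. They were chosen by name, and each matched 1 symbol among the 21247 genes of a count table from mouse periocular skin. RNA sequencing covered 4 libraries from ft/ft mice and 4 from ft/ftMyD88-/- mice, and the comparison asks how skin that lacks filaggrin differs with and without the adaptor MyD88. The ft/ft animals carry a spontaneous loss-of-function point mutation of filaggrin, an epidermal barrier protein, and by the study's methods lack the ma mutation that often travels with it. The ft/ftMyD88-/- animals come from an in-house cross of that line with MyD88-deficient mice, so that both groups share the filaggrin mutation. Both are on a BALB/c background, are described as 6-week-old females, received no agent and were kept under the same specific pathogen-free conditions. Wild-type samples were not analysed here, so no level below is set against skin with filaggrin.

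Inflammasomes are protein platforms that assemble in the cytosol when a sensor meets a microbial product or a sign of damage. The sensors recruit the adaptor ASC and the protease caspase-1, which matures interleukin-1 beta and interleukin-18 and cuts the pore protein gasdermin D, while caspase-11 (gene Casp4 in the mouse) reacts to bacterial lipopolysaccharide directly. NOD1 and NOD2 sense fragments of peptidoglycan and pass the signal through the kinase RIPK2 to NF-kB, a route that does not need MyD88, whereas Toll-like and interleukin-1 receptors do signal through MyD88 and can raise the transcripts of Nlrp3 and Il1b.

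The ft/ft libraries held 18941705 to 29255129 counts and the ft/ftMyD88-/- libraries 15802957 to 27037997. Levels are given as CPM, the count scaled by effective library size, on which scale 3 counts were worth 0.102 to 0.183. The mitochondrial share of counts was 1.86 to 2.72% in the ft/ft libraries and 1.02 to 1.99% in the ft/ftMyD88-/- libraries, and its part in the differences was not tested. Over 20454 genes tested, edgeR called 2239 higher and 2525 lower in ft/ftMyD88-/- at an adjusted p under 0.05. Scaling by library size only gave 4638 higher and 1326 lower, with the median log2 fold change of all genes moved from 0.01 to 0.19. Checks of the labels touch each result below. Xist held at most 1 count in each ft/ft library and averaged 49.4 ± 13.3 CPM (SD, n = 4) in ft/ftMyD88-/-, while the Y-linked Ddx3y averaged 65.0 ± 8.97 in ft/ft and 0.147 ± 0.225 in ft/ftMyD88-/-. The transcripts thus went against the label of female mice in ft/ft, so effects of sex cannot be told apart from those of genotype. Directions below follow the labels, and whether any library carries another's label was not tested. The Myd88 transcript itself averaged 30.7 ± 4.74 CPM in ft/ft and was no lower, at 41.2 ± 7.29, in the libraries labelled ft/ftMyD88-/- (log2 fold change 0.42, edgeR adjusted p = 0.0484, up to 0.136 with 1 library left out), and a gene-level count does not show whether an exon is deleted. Flg, whose mutation both groups share, was at 103 ± 69.8 CPM in ft/ft and 242 ± 39.5 CPM in ft/ftMyD88-/- (log2 fold change 1.22, edgeR adjusted p = 0.12), and it passed the test with DESeq2 (adjusted p = 0.045), with limma voom (adjusted p = 0.0199) and without ft/ft replicate 2 (1.75, edgeR adjusted p = 0.0121). Tmem79, the gene that the ma mutation disrupts, fell from 59.2 ± 2.92 to 16.4 ± 2.1 CPM (log2 fold change -1.85, edgeR adjusted p = 5.08e-07).

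By edgeR, 6 members differed between the groups, 5 of them higher in ft/ftMyD88-/- and 1 lower. Aim2 and Nlrp3, sensors of DNA and of cellular disturbance, were 3.6-fold and 3.92-fold higher, the proteases Casp4 and Casp1 were 1.7-fold and 1.48-fold higher, and the peptidoglycan sensor Nod2 was 1.6-fold higher. Nlrp10, a NOD-like receptor of the epidermis, was 2.62-fold lower. Nlrc4, Pycard, Nod1 and Ripk2 did not pass the test. Among all genes tested 23.3% were called, 10.9% higher and 12.3% lower, and the libraries of the groups did not overlap in 26.7% of all genes and in 6 of the 10 members. The median log2 fold change of the members was 0.62 against 0.01 over all genes tested, and 8 of the 10 were above 0.

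**Figure D1:**
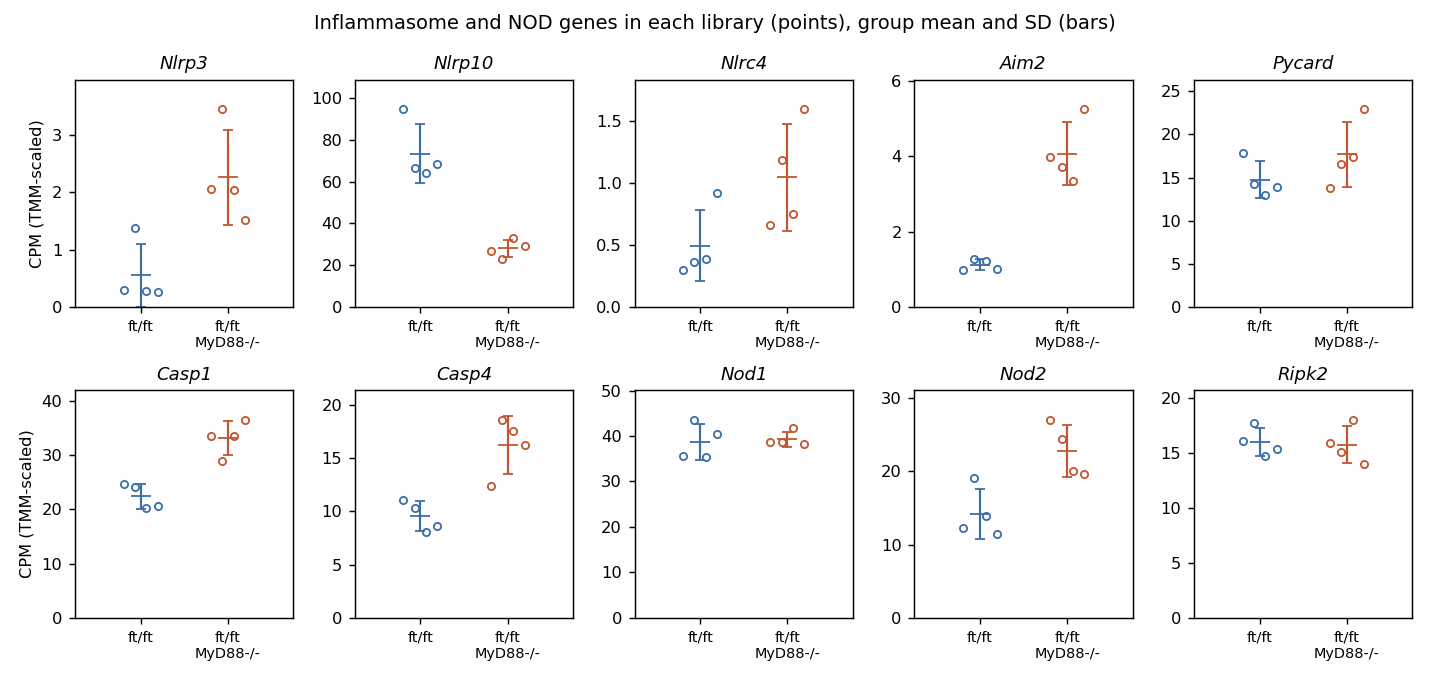
CPM of each member (vertical axis, 1 panel per gene) in the 4 ft/ft and 4 ft/ftMyD88-/- libraries, where points are libraries and bars the mean and SD. The groups are apart for Nlrp3, Nlrp10, Aim2, Casp1, Casp4 and Nod2, and they overlap for Nlrc4, Pycard, Nod1 and Ripk2.

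Aim2, which binds double-stranded DNA in the cytosol and engages ASC, lies at chr1:173349547-173466040 (GRCm38.p6, RefSeq). It was at 0.986, 1.27, 1.23 and 0.997 CPM in ft/ft replicates 1 to 4 and at 3.99, 3.71, 3.33 and 5.24 CPM in ft/ftMyD88-/- replicates 1 to 4. All 4 ft/ftMyD88-/- libraries stood above all 4 ft/ft libraries, with 86 to 101 counts against 22 to 35. The difference was 1.85 ± 0.21 (log2 fold change ± SE, 95% interval 1.40 to 2.30, edgeR adjusted p = 1.66e-04). The gene body overlaps Cadm3 on the opposite strand, but the 2 genes share 0 exonic bases in the annotation. In bulk skin, more cells of a type and more RNA per cell cannot be told apart, and this holds for each member.

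Nlrp3, the sensor that answers potassium efflux, crystals and other cellular disturbance, lies at chr11:59541569-59566955. It was rare in ft/ft, at 0.3, 1.38, 0.279 and 0.268 CPM in replicates 1 to 4, which rest on 7, 38, 5 and 7 counts. In ft/ftMyD88-/- it was at 2.06, 3.45, 2.04 and 1.52 CPM, from 47, 94, 60 and 25 counts. The groups did not overlap, but ft/ft replicate 2 came close to the lowest ft/ftMyD88-/- library and stood well above the other ft/ft libraries. The difference was 1.97 ± 0.51 (log2 fold change ± SE, 95% interval 0.85 to 3.10, edgeR adjusted p = 0.0187). It was 3.00 without ft/ft replicate 2 (edgeR adjusted p = 5.63e-04), and the call was lost without ft/ft replicate 1 (1.76, edgeR adjusted p = 0.0513) and without ft/ft replicate 4 (1.73, edgeR adjusted p = 0.05).

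Nlrc4, which with the NAIP proteins reacts to bacterial flagellin and secretion systems, lies at chr17:74426255-74459144 and was scarce in both groups. It was at 0.3, 0.364, 0.39 and 0.92 CPM in ft/ft and at 0.657, 1.18, 0.748 and 1.59 CPM in ft/ftMyD88-/-. The groups overlapped, since ft/ft replicate 4 exceeded 2 of the ft/ftMyD88-/- libraries, and the counts were only 7 to 32 per library. The log2 fold change of 1.02 ± 0.41 had a 95% interval of 0.13 to 1.92, yet did not pass the adjustment over all genes (edgeR adjusted p = 0.0924). It did pass without ft/ft replicate 4 (1.53, edgeR adjusted p = 0.0257).

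Nlrp10, a NOD-like receptor without leucine-rich repeats that keratinocytes express, lies at chr7:108921853-108930158. It was at 94.6, 66.6, 64.1 and 68.5 CPM in ft/ft and at 27, 23.1, 33 and 29.1 CPM in ft/ftMyD88-/-. The lowest ft/ft library was well above the highest ft/ftMyD88-/- library, and the counts behind them ran from 477 to 2208. The log2 fold change was -1.39 ± 0.14 (95% interval -1.70 to -1.08, edgeR adjusted p = 9.8e-05), the only call among the members in this direction.

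Pycard encodes ASC, the adaptor that joins most of these sensors to caspase-1, and lies at chr7:127991373-127993867. It was at 17.9, 14.2, 13 and 13.9 CPM in ft/ft and at 13.8, 16.6, 17.4 and 22.9 CPM in ft/ftMyD88-/-. The ranges overlapped, with ft/ft replicate 1 above 3 of the ft/ftMyD88-/- libraries. The log2 fold change was 0.26 ± 0.15 (95% interval -0.08 to 0.59, edgeR adjusted p = 0.254).

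Casp1 and Casp4, the inflammatory caspases, are neighbours on chromosome 9, at chr9:5298517-5307281 and chr9:5308849-5336791, with 1567 bases between them on the same strand. Casp1 was at 24.7, 24.1, 20.3 and 20.6 CPM in ft/ft and at 33.6, 29, 33.5 and 36.5 CPM in ft/ftMyD88-/-. No library of one group fell within the range of the other, and the log2 fold change was 0.56 ± 0.11 (95% interval 0.33 to 0.79, edgeR adjusted p = 0.00303). Casp4 was at 11.1, 10.3, 8.09 and 8.67 CPM in ft/ft and at 12.4, 18.6, 17.6 and 16.3 CPM in ft/ftMyD88-/-. Its groups did not overlap either, although ft/ftMyD88-/- replicate 1 lay just above the ft/ft range. The log2 fold change of Casp4 was 0.76 ± 0.15 (95% interval 0.44 to 1.09, edgeR adjusted p = 0.00374). Within each library the ratio of Casp4 to Casp1 counts was 0.424 ± 0.0207 in ft/ft and 0.495 ± 0.116 in ft/ftMyD88-/- (SD, n = 4), and these ranges overlapped.

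The 250 bases before the annotated start are shown for Nlrp3, Casp1 and Casp4, 3 of the 5 members called higher: the caspases because these neighbours differ in NF-kB consensus matches, and Nlrp3 because it is the other of the 5 with a match. The windows of Aim2 and Nod2, also called higher, held no match and are not shown. The sequences are RefSeq's for GRCm38.p6, plus strand, 5′ to 3′, and capitals mark matches.
Nlrp3, chr11:59541319-59541568: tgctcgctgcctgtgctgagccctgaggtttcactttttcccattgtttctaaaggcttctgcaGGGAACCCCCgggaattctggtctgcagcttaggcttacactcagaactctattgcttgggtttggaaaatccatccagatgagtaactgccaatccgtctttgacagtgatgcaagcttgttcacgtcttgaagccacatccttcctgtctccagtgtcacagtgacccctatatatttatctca
Casp1, chr9:5298267-5298516: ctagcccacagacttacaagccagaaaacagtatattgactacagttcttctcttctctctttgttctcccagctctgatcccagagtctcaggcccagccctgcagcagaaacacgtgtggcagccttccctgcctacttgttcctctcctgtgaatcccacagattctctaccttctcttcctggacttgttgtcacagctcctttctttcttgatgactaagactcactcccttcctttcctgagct
Casp4, chr9:5308599-5308848: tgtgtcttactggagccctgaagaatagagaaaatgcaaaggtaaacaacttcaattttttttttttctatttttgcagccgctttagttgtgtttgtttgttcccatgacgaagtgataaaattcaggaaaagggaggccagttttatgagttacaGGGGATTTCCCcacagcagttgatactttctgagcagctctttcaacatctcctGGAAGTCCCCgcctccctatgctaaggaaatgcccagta
The Casp4 window held 3 matches to the NF-kB consensus, starting at -93, -92 and -39 from the start site, of which the first 2 overlap. The Nlrp3 window shown held 1 match, at -186, a window at another annotated start of Nlrp3 (chr11:59542436-59542685) held none, and the Casp1 window held none. Both strands were searched for the NF-kB consensus and for GAAANNGAA (IRF), TTCNNNGAA (STAT) and TGANTCA (AP-1), which occur in 7.25%, 7.13%, 7.02% and 6.75% of 32851 promoter windows of this length. Windows were found for 8 of the 10 members (11 windows), and 4 windows held any match, against 25.3% of all windows. They were 2 windows of Casp4, which overlap and hold the same 3 matches, 1 of Nlrp3 and 1 of Nod1. Nlrp10 and Ripk2 had no window in the table used. A match describes letters only.

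Nod1 and Nod2 sense different peptidoglycan fragments, Nod1 those with diaminopimelic acid and Nod2 muramyl dipeptide. Only Nod2 passed the test, and the difference between their changes was not tested. Nod2, at chr8:88647315-88688474, was at 12.2, 19.1, 13.9 and 11.5 CPM in ft/ft and at 27, 24.4, 20 and 19.6 CPM in ft/ftMyD88-/-. The groups did not overlap, with ft/ft replicate 2 just under the lowest ft/ftMyD88-/- library, and the log2 fold change was 0.68 ± 0.17 (95% interval 0.32 to 1.04, edgeR adjusted p = 0.0119). Nod1, at chr6:54923942-54972674, was at 35.7, 43.5, 35.3 and 40.5 CPM in ft/ft and at 38.6, 38.7, 41.7 and 38.2 CPM in ft/ftMyD88-/-. Here the ft/ftMyD88-/- libraries lay inside the ft/ft range, and the log2 fold change was 0.02 ± 0.09 (95% interval -0.18 to 0.22, edgeR adjusted p = 0.896).

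Ripk2, the kinase that both receptors recruit, lies at chr4:16122732-16163678. It was at 16.1, 17.7, 14.7 and 15.4 CPM in ft/ft and at 15.9, 15.1, 18 and 14 CPM in ft/ftMyD88-/-. The ranges overlapped almost wholly, and the log2 fold change was -0.02 ± 0.11 (95% interval -0.27 to 0.22, edgeR adjusted p = 0.909). Within each library the ratio of Nod2 to Nod1 counts was 0.285 to 0.44 in ft/ft and 0.479 to 0.698 in ft/ftMyD88-/-, without overlap. The ratio of Ripk2 to Nod2 counts was 0.928 to 1.33 in ft/ft and 0.588 to 0.9 in ft/ftMyD88-/-, also without overlap. These ratios do not depend on library scaling, but they were chosen after the levels had been seen and carry no test.

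**Figure D2:**
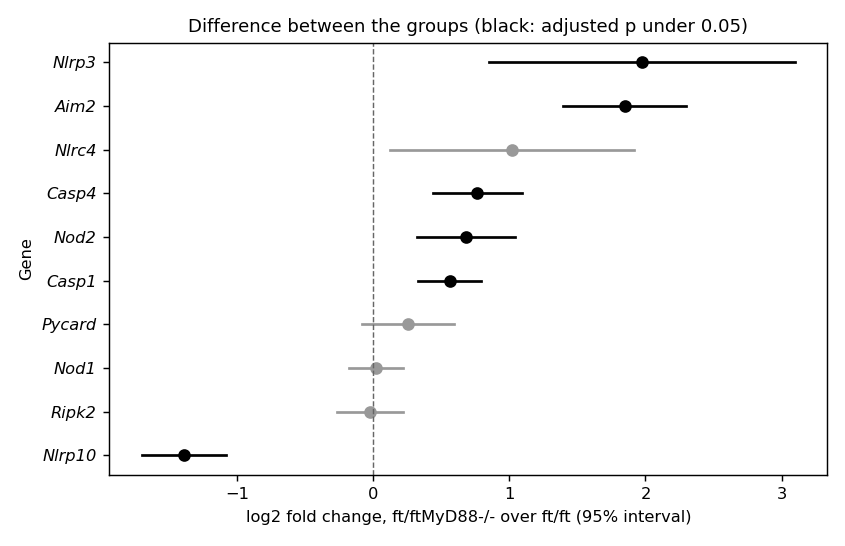
Log2 fold change of ft/ftMyD88-/- over ft/ft with its 95% interval (horizontal axis) for each member (vertical axis), black where the edgeR adjusted p was under 0.05. Nlrp3 has the widest interval (0.85 to 3.10), Nod1 and Ripk2 have narrow intervals around 0, and Nlrp10 alone lies wholly below 0.

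Levels of different genes were compared per length, as CPM per kilobase of the longest annotated transcript with a RefSeq entry. This scale holds for reads taken along whole transcripts, as the study's methods describe, and would not hold for the probe-based fixed-RNA protocol that the labels name. In ft/ft the order was Nlrp10 (16.3 ± 3.16), Casp1 (15.0 ± 1.53), Nod1 (8.98 ± 0.916), Casp4 (6.65 ± 0.975), Ripk2 (5.93 ± 0.477), Pycard (3.88 ± 0.569), Nod2 (3.05 ± 0.738), Aim2 (0.395 ± 0.0529), Nlrp3 (0.138 ± 0.137) and Nlrc4 (0.104 ± 0.0607; mean ± SD, n = 4). Within 1 SD of each mean, Nlrp10 and Casp1, Casp4 and Ripk2, Pycard and Nod2, and Nlrp3 and Nlrc4 did not separate. In ft/ftMyD88-/- Casp1 led (22.1 ± 2.07), followed by Casp4 (11.3 ± 1.89), Nod1 (9.11 ± 0.374), Nlrp10 (6.23 ± 0.917), Ripk2 (5.85 ± 0.628), Nod2 (4.89 ± 0.768), Pycard (4.65 ± 1.0), Aim2 (1.43 ± 0.291), Nlrp3 (0.564 ± 0.206) and Nlrc4 (0.221 ± 0.0909). Here Casp4 and Nod1 did not separate within 1 SD, nor did Nlrp10, Ripk2, Nod2 and Pycard from each other.

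Nlrp10, which shared the top of this order with Casp1 in ft/ft, lay below Casp1, Casp4 and Nod1 in ft/ftMyD88-/-. Of the summed per-kilobase level of the 4 sensors Nlrp3, Nlrp10, Nlrc4 and Aim2, Nlrp10 made up 94.5 to 97.7% in the ft/ft libraries and 68.0 to 79.9% in the ft/ftMyD88-/- libraries. It was the most abundant of the 4 sensors in each of the 8 libraries. The order depends on the transcript model: over all annotated exons Casp4 measures 3710 bases rather than 1435 and took place 7 in both groups (2.57 and 4.37 CPM per kilobase), which put Nlrp10 in place 3 in ft/ftMyD88-/-, and the transcript used for Pycard, 3800 bases, is longer than its RefSeq gene.

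**Figure D3:**
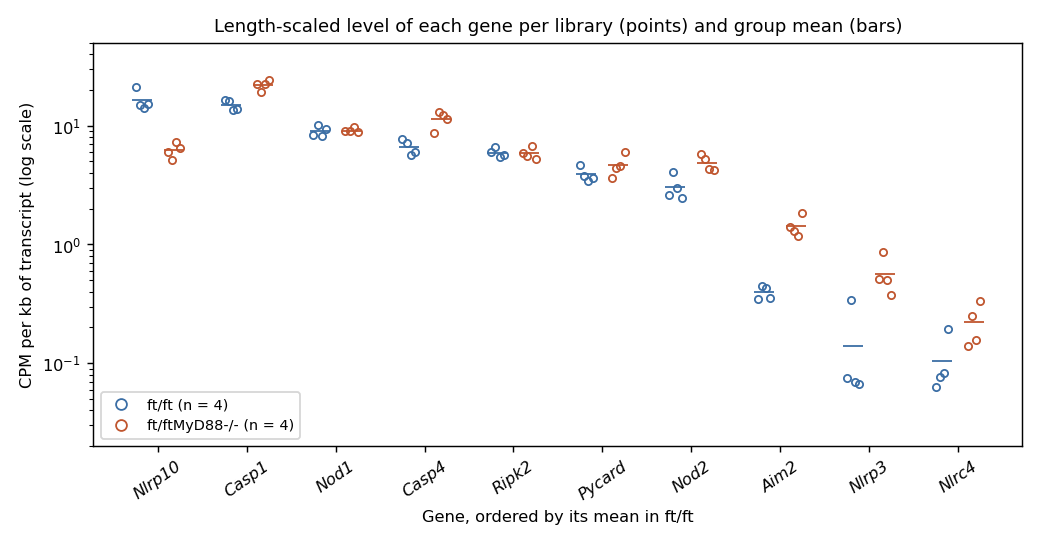
CPM per kilobase of transcript (vertical axis, log scale) of each member (horizontal axis) in the 8 libraries, with points for libraries and bars for group means. Nlrp10 and Casp1 are at the top in ft/ft (16.3 and 15.0), Casp1 leads in ft/ftMyD88-/- (22.1), and Aim2, Nlrp3 and Nlrc4 are lowest in both groups.

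Other genes of these pathways were followed in 6 lists of 60 genes, of which 58 were in the table and tested. Over all genes tested 10.9% were called higher and 12.3% lower, and these shares are the background for each list below. Among the 58, 10 were higher and 6 lower in ft/ftMyD88-/-, and 42 did not pass the test. Their median log2 fold change was 0.09 against 0.01 over all genes tested. Only 5 were called higher without ft/ft replicate 1, 3 or 4 or ft/ftMyD88-/- replicate 2 or 4. Among the substrates, pore proteins and cytokine inhibitors, 1 of 8 rose and 1 fell (median 0.13). Il1b, the precursor of interleukin-1 beta, was at 3.64, 8.69, 1.95 and 0.92 CPM in ft/ft and at 24, 47.6, 19.1 and 33.4 CPM in ft/ftMyD88-/-. Its groups did not overlap, and the log2 fold change was 3.00 (edgeR adjusted p = 0.025). It was 3.84 without ft/ft replicate 2 (edgeR adjusted p = 0.00735), but the call was lost without ft/ft replicate 1 or 3 or ft/ftMyD88-/- replicate 2 or 4 (edgeR adjusted p up to 0.0663). Il1r2, the decoy receptor of interleukin-1, fell from 66.8 ± 3.02 to 37.9 ± 4.8 CPM (log2 fold change -0.82, edgeR adjusted p = 2.24e-04).

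The other caspase-1 substrates did not follow Il1b past the test. Il18, which skin makes at rest, had a mean of 38.6 ± 6.23 CPM among ft/ft libraries and 32.3 ± 9.7 among ft/ftMyD88-/- libraries (log2 fold change -0.26, edgeR adjusted p = 0.366), and it passed the test without ft/ftMyD88-/- replicate 4 (-0.47, edgeR adjusted p = 0.0364). Gsdmd, the gasdermin that caspase-1 and caspase-11 cut, was at 6.79 ± 0.924 and 9.47 ± 1.99 CPM (0.48, edgeR adjusted p = 0.0592). Gsdmd passed the test without ft/ftMyD88-/- replicate 1 (edgeR adjusted p = 0.0142), with library size only (edgeR adjusted p = 0.0162) and with DESeq2 (adjusted p = 0.0294).

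Of 11 other NOD-like receptors tested, 2 rose and 1 fell (median 0.54). Naip1, one of the NAIP proteins that hand bacterial ligands to NLRC4, fell from 4.22 ± 0.941 to 2.32 ± 0.933 CPM (log2 fold change -0.88, edgeR adjusted p = 0.0396). Its relative Naip5, a flagellin sensor, rose from 0.468 ± 0.117 to 0.96 ± 0.261 CPM (1.04, edgeR adjusted p = 0.0324) and was named after its values were seen. Naip1 and Naip5 belong to a cluster of closely similar genes between which reads can be split, which limits the values of both. Ciita, the master regulator of MHC class II genes, rose from 11.4 ± 1.86 to 16.5 ± 3.62 CPM (0.54, edgeR adjusted p = 0.0412), with overlapping groups. Each of these calls was lost in several fits that left out 1 library: Naip1 without any but ft/ftMyD88-/- replicate 1 (edgeR adjusted p up to 0.108), Naip5 without ft/ft replicates 1, 2 or 4 or ft/ftMyD88-/- replicates 2, 3 or 4 (up to 0.0855), and Ciita without ft/ft replicates 1, 3 or 4 or ft/ftMyD88-/- replicates 2, 3 or 4 (up to 0.102). Naip1 also lost its call with library size only (edgeR adjusted p = 0.0748), and Ciita with limma voom (adjusted p = 0.0644). Nlrp2 and Nlrp6 were not analysed here.

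The 12 other inflammasome sensors and regulators had 2 higher and 2 lower (median -0.01). Mefv, which encodes the sensor pyrin, rose from 1.12 ± 0.415 to 2.71 ± 0.463 CPM (log2 fold change 1.28, edgeR adjusted p = 0.00523), and Zbp1, a sensor of Z-form nucleic acids, rose by 0.56 on the log2 scale (edgeR adjusted p = 0.0491). The Zbp1 call was lost without any 1 library other than ft/ftMyD88-/- replicate 1 (edgeR adjusted p up to 0.123). It was also lost with limma voom (adjusted p = 0.059). Txnip, a thioredoxin-binding protein that can bind NLRP3, fell from 286 ± 22 to 197 ± 34.6 CPM (-0.54, edgeR adjusted p = 0.0081), and Dpp8, a protease that restrains NLRP1 and CARD8 type inflammasomes, fell by 0.37 on the log2 scale (edgeR adjusted p = 0.0079), and both calls were lost with library size only (edgeR adjusted p = 0.0553 and 0.113). Of 7 other caspases 2 rose and 0 fell (median 0.22). They were Casp14, the caspase of keratinocyte cornification (110 ± 21.2 to 235 ± 90 CPM, 1.10, edgeR adjusted p = 0.0225), and the apoptotic initiator Casp9 (0.41, edgeR adjusted p = 0.00438). Casp14 lost its call without ft/ft replicates 1, 3 or 4 or ft/ftMyD88-/- replicate 1 (edgeR adjusted p up to 0.0645).

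Of 13 partners of NOD signalling, 2 rose and 0 fell (median 0.16), and neither is a receptor or kinase. Tnfaip3, the ubiquitin-editing inhibitor A20, rose from 16.5 ± 2.35 to 24.4 ± 2.76 CPM (log2 fold change 0.56, edgeR adjusted p = 0.00768), and Birc3, a ubiquitin ligase, rose from 27.9 ± 2.48 to 34.8 ± 2.46 CPM (0.32, edgeR adjusted p = 0.0296). The Birc3 call was lost without ft/ft replicates 1, 3 or 4 or ft/ftMyD88-/- replicates 2 or 4 (edgeR adjusted p up to 0.0981). Among 7 genes of peptidoglycan transport and recognition 1 rose and 2 fell (median -0.20). Pglyrp3, a secreted peptidoglycan-binding protein, rose from 6.7 ± 0.788 to 10.6 ± 0.905 CPM (0.66, edgeR adjusted p = 0.00362). Pglyrp2, an amidase that cleaves peptidoglycan, fell from 6.31 ± 0.794 to 2.67 ± 0.497 CPM (-1.23, edgeR adjusted p = 6.12e-04), and Slc15a2, a carrier of di- and tripeptides and of bacterial peptides, fell from 23.3 ± 7.46 to 9.03 ± 1.28 CPM (-1.37, edgeR adjusted p = 0.00168).

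**Figure D4:**
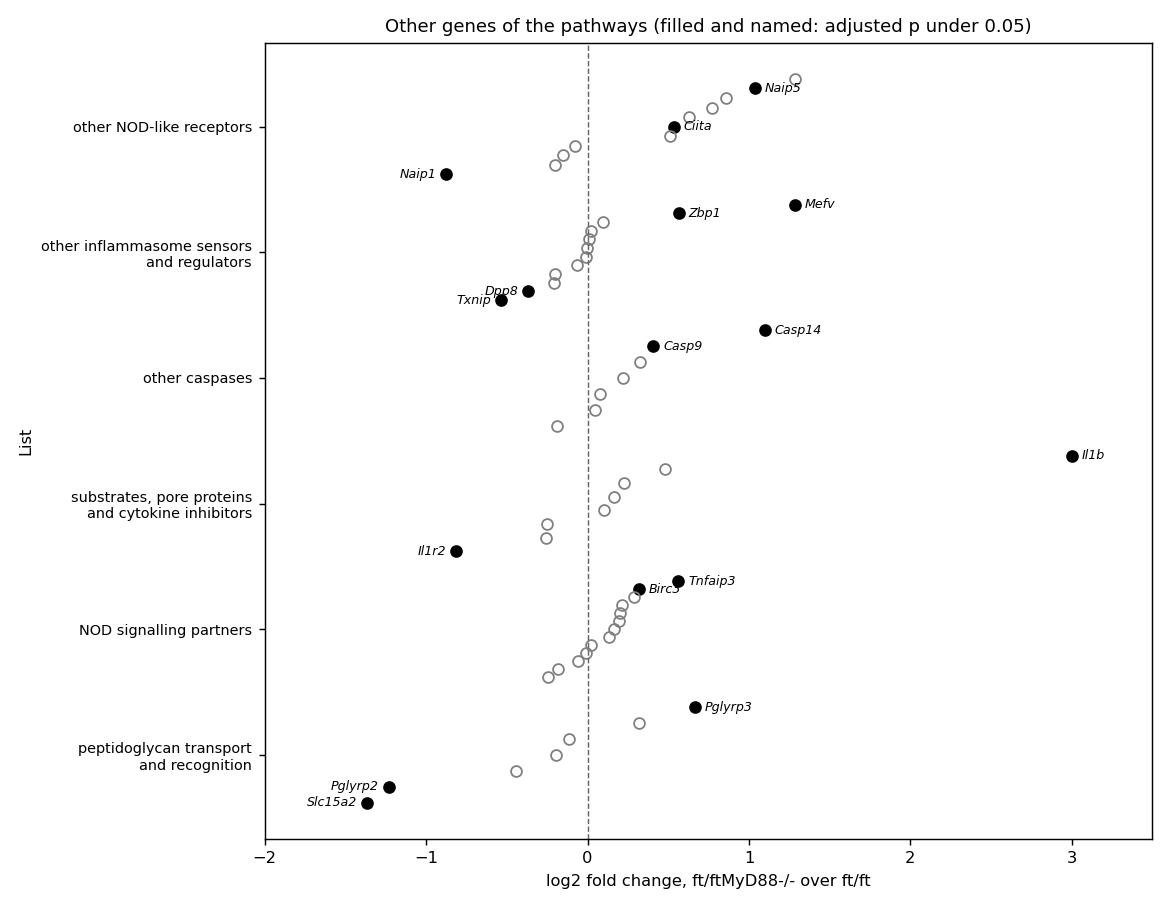
Log2 fold change of ft/ftMyD88-/- over ft/ft (horizontal axis) of the 58 other pathway genes, grouped by list (vertical axis), filled and named where the edgeR adjusted p was under 0.05. Il1b stands farthest to the right (3.00), and Slc15a2 and Pglyrp2 farthest to the left (-1.37 and -1.23).

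Markers of several cell types moved with the groups, and their part in the members' differences was not tested. All 7 T cell markers were higher in ft/ftMyD88-/- (summed 15.1 to 21 CPM in ft/ft, 28.6 to 36.8 in ft/ftMyD88-/-), as were 3 of 4 pan-leukocyte markers (122 to 154, 157 to 228) and 3 of 9 macrophage and monocyte markers (567 to 731, 787 to 1100). Much of that last sum was Lyz2, with a mean of 259.8 CPM in the ft/ft group against 513.9, while the log2 fold changes of Adgre1 (-0.03), Cd68 (-0.11) and Csf1r (-0.21) did not pass the test. Of the dendritic and Langerhans cell markers 3 of 8 were higher and 1 lower (54 to 66.4, 60.9 to 84.1). The neutrophil markers summed to 21.7 to 250 CPM in ft/ft, the highest in replicate 2, which also had the highest Nlrp3, and to 399 to 959 in ft/ftMyD88-/-, with 1 of 6 tested called higher, while Ngp was at 3 counts or fewer in every library, and Ly6g and Retnlg were not analysed here. S100a8 and S100a9, which inflamed keratinocytes also express, made up most of the neutrophil sum by group means (25.8 and 39.2 CPM in ft/ft, 242.5 and 367.9 in ft/ftMyD88-/-). Neither passed the test (edgeR adjusted p = 0.126 and 0.123), although the libraries of the groups did not overlap for either gene. No listed marker in the table was at 0 in all 8 libraries. Of 10 interferon-response genes 2 were higher (48.5 to 72.7, 58.2 to 80.4).

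Against the shared leukocyte gene Ptprc (CD45), which rose by 0.70 on the log2 scale (edgeR adjusted p = 0.00112), ratios were taken within each library. Per Ptprc count, Aim2 was at 0.0449 to 0.0534 in ft/ft and 0.0841 to 0.149 in ft/ftMyD88-/-, without overlap. Casp1 was at 1.02 ± 0.167 and 0.935 ± 0.176 per Ptprc count, Casp4 at 0.433 ± 0.0925 and 0.447 ± 0.0266, and Nod2 at 0.636 ± 0.116 and 0.645 ± 0.176 (SD, n = 4), and each of these overlapped. The ratio of Nlrp3 to Ptprc was 0.0121 to 0.0576 in ft/ft and 0.0434 to 0.0874 in ft/ftMyD88-/-, where ft/ft replicate 2 made the overlap. Against single neutrophil genes the directions differed: per Csf3r count Nlrp3 was at 0.0972 to 0.225 in ft/ft and higher, at 0.231 to 0.343, in ft/ftMyD88-/-, whereas per S100a9 count it was at 0.0103 to 0.0921 in ft/ft and lower, at 0.00288 to 0.00871, in ft/ftMyD88-/-, both without overlap. Keratinocytes also transcribe several members, so that a ratio to Ptprc does not give a level per leukocyte.

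Several markers of the epidermis and of other skin compartments were lower in ft/ftMyD88-/-, and their part in the difference of Nlrp10 was not tested. Of 7 basal keratinocyte markers 5 were lower (summed 14000 to 17200 CPM in ft/ft, 9840 to 12100 in ft/ftMyD88-/-), as were 5 of 7 differentiated keratinocyte markers (18200 to 23400, 12500 to 15400), 7 of 9 sebocyte markers (20600 to 23000, 12400 to 18200) and 6 of 7 skeletal muscle markers (7680 to 10600, 3010 to 5790). Of 5 hyperproliferative keratinocyte markers 1 was higher (2790 to 3610, 3280 to 5630), and of 6 anagen hair follicle markers 0 were called by edgeR (1800 to 2550, 2290 to 15300).

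Nlrp10 was set against single genes of these compartments within each library. Per count of Krt10, a keratin of differentiated layers, Nlrp10 was at 0.00806 to 0.0116 in ft/ft and 0.00483 to 0.00651 in ft/ftMyD88-/-, without overlap. Per count of Krt14, a basal keratin with a log2 fold change of 0.05, it was at 0.0158 ± 0.00379 and 0.00594 ± 0.00165. For Krt79, a keratin of sebaceous ducts with a log2 fold change of -0.01, the ratio was 0.0306 ± 0.00722 and 0.0118 ± 0.00231. Set against the basal keratin Krt5 (log2 fold change -0.67), Nlrp10 was at 0.0149 ± 0.00344 and 0.00903 ± 0.00177. With the sebocyte marker Scd1 (-0.65) the ratio was 0.00539 ± 0.00143 and 0.00335 ± 0.00102. None of these ranges overlapped. Per count of Lor, which encodes the cornified envelope protein loricrin and fell by 1.51 on the log2 scale (edgeR adjusted p = 2.3e-05), Nlrp10 was at 0.0185 ± 0.00369 and 0.0198 ± 0.00265, with overlapping ranges. The partner genes of these ratios were chosen after levels had been seen, so the ratios are descriptions.

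**Figure D5:**
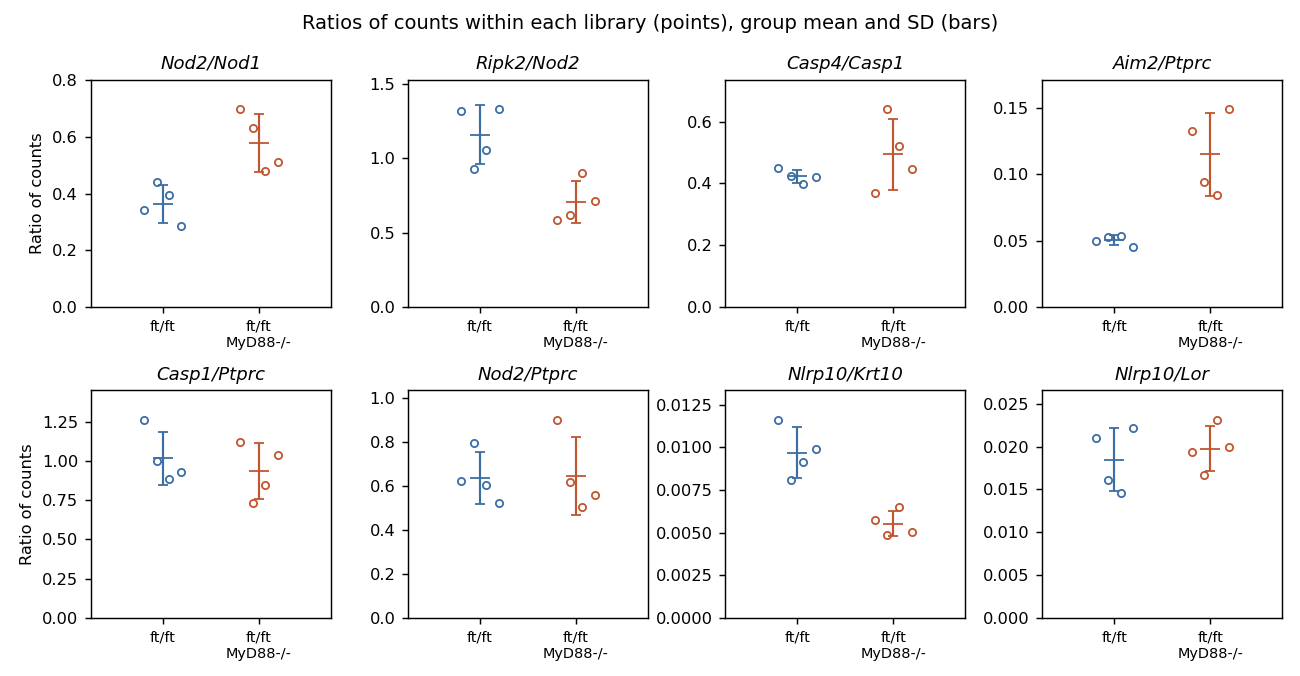
Ratio of the counts of 2 genes within each library (vertical axis) for 8 pairs, with points for libraries and bars for the mean and SD. The groups are apart for Nod2/Nod1, Ripk2/Nod2, Aim2/Ptprc and Nlrp10/Krt10, and they overlap for Casp4/Casp1, Casp1/Ptprc, Nod2/Ptprc and Nlrp10/Lor.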

How the data were processed

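Raw read counts per gene were deposited by the authors for periocular skin, without normalization. By the study's methods, reads from polyA-selected libraries were placed on GRCm38.p6 by HISAT and TopHat2, and HTSeq was run with default parameters. The labels instead give total RNA and a protocol for fixed tissue, and the submitters' processing notes name Cell Ranger and GRCm38. The annotation release is not given in the sources used here, and no strand setting is named beyond those defaults.

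Libraries were grouped by their labels (4 ft/ft, 4 ft/ftMyD88-/-). Genes with at least 10 counts in sum (20454 of 21247) entered edgeR 4.0.16 under R 4.3.3 (robust quasi-likelihood test, TMM, two-sided, Benjamini-Hochberg over all genes tested, threshold 0.05). CPM are counts over TMM-scaled library size, and 95% intervals are the log2 fold change ± t times its SE. Alternatives were DESeq2 1.42.0, limma 3.58.1 voom, other scalings and filters, a replicate block, stricter thresholds and each library left out. In simulated data with 200 genes changed by 2 on the log2 scale, the fit called 200 of them and 6 unchanged genes. Smaller changes, and as many changed genes as were called here, were not simulated. No 2 libraries of the same group were alike within sampling noise (chi-square per degree of freedom at least 15.1). The study's text gives 4 mice for each group, as many as there are libraries, while the labels number the libraries without naming animals. Floors of 3 counts cover counting error only.

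The members and gene lists were chosen with earlier results of these data known. From each pathway list up to 5 called genes with a mean of at least 1 CPM are named, by absolute log2 fold change, besides Il1b, Il18, Gsdmd and, chosen after its values were seen, Naip5, and 1 gene of the lists is not reported here. Marker genes used as partners in ratios were chosen after their values were seen. Promoters come from RefSeq (GRCm38.p6) and transcript lengths from GENCODE M21 (GRCm38).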

Additional observations from a re-analysis of the deposited data

Results flagged for a closer look

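Among 20 groups of 4 libraries (10 members in 2 genotypes), 4 held a library whose distance from the rest exceeded Dixon's critical value, where chance gives about 1 in 20 groups. Nlrp3 in ft/ft replicate 2 was at 1.38 CPM, with the nearest ft/ft library at 0.3. In ft/ft replicate 1, Nlrp10 was at 94.6 CPM, with the next at 68.5. For Nlrc4, ft/ft replicate 4 stood at 0.92 CPM and the next library at 0.39. Nod1 was at 41.7 CPM in ft/ftMyD88-/- replicate 3, with the nearest at 38.7. The libraries differ from gene to gene, and their causes were not tested.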

How the results depend on the processing

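The 10 members were fitted under 15 alternatives each. Of these 150 values, 138 kept their direction and their side of the threshold, 2 lost and 4 gained a call, and 6 changed sign, all in the uncalled Nod1 and Ripk2. The count of members called higher was 5, and it was 3 at an adjusted p under 0.01, 2 with a log2 fold change of 1 or more either way, 7 with library size only and 4 to 5 with a library left out; without ft/ft replicate 4, Nlrp3 was lost and Nlrc4 gained. With a library left out Nod1 ran from -0.0213 to 0.0808, below 0 without ft/ft replicate 1 or 3, and Ripk2 from -0.0786 to 0.0382, above 0 without ft/ft replicate 2 or ft/ftMyD88-/- replicate 2 or 4. Ripk2 was at 0.16 with library size only. Library size only, which leaves out the TMM factors, also called Nlrc4 (1.19, edgeR adjusted p = 0.0481) and Pycard (0.43, edgeR adjusted p = 0.047). Of the other pathway genes, 10 were called higher, against 21 with library size only, 4 at an adjusted p under 0.01, 4 with a log2 fold change of 1 or more either way and 5 to 15 with a library left out. Of the 6 called lower, 3 were left in number with library size only, 2 with a log2 fold change of 1 or more either way and 5 to 6 with a library left out. Of 270 values of named pathway genes, 47 lost and 4 gained a call and 0 changed sign. Same-numbered libraries of the 2 groups did not deviate together (r from -0.146 to 0.025). With 4 libraries per group, this cannot exclude that the numbers pair them. With a replicate block 6 members were called higher and 1 lower, with Nlrc4 added (1.12, edgeR adjusted p = 0.0344), and 7 pathway genes were called higher, without Casp14 (edgeR adjusted p = 0.0842), Birc3 (0.0512) and Naip5 (0.0547). The causes of these changes were not tested. Nlrp3 and Nlrc4 rest on 5 to 94 counts per library, which limits their precision.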
